A study of Mus musculus with 20 samples.

Results

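Integrins are the transmembrane receptors that bind cells to the matrix, and laminins are the main adhesive glycoproteins of the basement membrane on which epithelial cells sit. The 37 genes described here are the protein-coding rows of the deposited table whose symbols are those of an integrin α subunit (18 genes), an integrin β subunit (8 genes) or a laminin chain (11 genes), out of 54986 rows in all, 22169 of them protein-coding. The choice used the symbols alone and no measured value. RNA from NMuMG cells, an epithelial line of the normal mouse mammary gland, was sequenced in 10 conditions with 2 libraries each. Of the 37 genes, 21 reached 1 count per 1e6 reads (CPM) in at least 2 of the 20 libraries and were tested, and 16 were not.

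The conditions fell into 2 kinds of library that differed in the noncoding RNAs they retained (the mitochondrial ribosomal RNA mt-Rnr2 was at most 492 CPM in the first kind and at least 113874 CPM in the second), and levels were compared within a kind. The first kind held untreated NMuMG, cells given TGFβ for 4 days, NMuMG silenced for hnRNP E1 by shRNA (E1KD), M1P and L1P. The M1P cells were recovered from the primary tumor, and the L1P cells from lung metastases, that E1KD cells had formed in NOD/SCID mice, and both carried a puromycin resistance gene used to select them after isolation. The second kind held NMuMG with an empty vector, NMuMG overexpressing the long noncoding RNA Platr18 (clone 12 and clone 16, each a line grown from 1 clone), and 2 lines of E1KD cells, which carried a scrambled shRNA (E1KD SCR) or an shRNA to Platr18 (E1KD Platr18 KD). All 10 conditions thus come from the same parental line, and the 4 lines with tumor origin or a further shRNA descend from cells silenced for hnRNP E1. The labels number the replicates but do not state that they were separate cultures. Every p-value therefore measures the spread between libraries of a condition, which may be technical. In the fit of all libraries that spread was pooled for each gene over all 10 conditions.

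An integrin is a pair of an α and a β subunit. The α3, α6 and α7 subunits bind laminins, α1, α2, α10 and α11 bind collagens, and α5, α8, αv and αIIb bind the RGD motif of fibronectin, vitronectin and the latency peptide of TGFβ. The β1 subunit pairs with most α subunits, β4 pairs with α6 in the hemidesmosome, β3, β5, β6 and β8 pair with αv, and β2 and β7 are known from leukocytes. A laminin is a trimer of an α, a β and a γ chain, and the trimers that contain the β3 chain anchor epithelial cells through hemidesmosomes. In the transition of epithelial to mesenchymal cells that TGFβ induces, receptors for fibronectin are known to replace receptors for the basement membrane.

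In units of 1e6 reads, the libraries of the first kind were scaled to between 50.8 and 60.03 and those of the second to between 62.96 and 147, so that 3 reads on a gene were worth between 0.0204 and 0.0591 CPM. Pcbp1, which encodes hnRNP E1, was listed at 287 and 312 CPM in NMuMG and at 16.6 and 14.2 CPM in E1KD, and at 32.3 and 32.3 CPM with the empty vector against 3.28 and 3.46 CPM in E1KD SCR. Platr18 was between 813 and 3096 CPM in the clones against 3.06 and 3.69 CPM with the empty vector, and 0.136 and 0.170 CPM in E1KD Platr18 KD against 2.92 and 3.10 CPM in E1KD SCR. The E1KD libraries stood apart from each other. On the log2 scale replicate 1 exceeded replicate 2 by a median of 0.29 over all tested genes and 0.44 over the integrin and laminin genes, and no other condition exceeded 0.07 in size over all genes. Replicate 1 of E1KD also summed to 72.9% of 1e6 CPM, where the other libraries of its kind summed to between 54.7% and 58.1%. Results that rest on E1KD are therefore given with both libraries and without replicate 1. The pooled p-values and standard errors do not carry the wider spread of E1KD in full. Of 14 epithelial markers, 8 were tested, with Krt8 and Krt18 above 546 CPM in every library. Epcam, a defining epithelial marker, was listed at no more than 0.0168 CPM in any library.

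The gene start sequences of the genes that rose together after TGFβ (values follow) are shown first, since these genes share a response. RefSeq promoter entries on GRCm38.p6, which run from 250 bases before to 50 bases after a gene's start, matched 23 of the 37 genes, among them 5 of the 8 genes that rose after TGFβ. Each is printed 5′ to 3′ along the gene's strand, with capitals for any match, on either strand, to the SMAD box CAGAC, the GC box GGGCGG, the E-box CAGGTG or the AP-1 site TGANTCA.
Itga5 (chr15:103366742-103367041, minus strand): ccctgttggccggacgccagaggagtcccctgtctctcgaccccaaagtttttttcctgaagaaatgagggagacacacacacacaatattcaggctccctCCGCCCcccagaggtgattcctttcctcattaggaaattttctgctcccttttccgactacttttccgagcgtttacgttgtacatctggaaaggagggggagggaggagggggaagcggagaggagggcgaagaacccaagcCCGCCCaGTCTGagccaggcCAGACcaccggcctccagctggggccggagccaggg
Itgav (chr2:83724147-83724446, plus strand): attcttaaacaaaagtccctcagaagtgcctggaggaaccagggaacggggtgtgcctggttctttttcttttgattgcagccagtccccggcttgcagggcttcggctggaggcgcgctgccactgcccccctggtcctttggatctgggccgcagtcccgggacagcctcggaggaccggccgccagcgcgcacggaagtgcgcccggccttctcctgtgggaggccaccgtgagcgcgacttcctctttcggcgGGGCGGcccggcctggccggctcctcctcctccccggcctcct
Itgb1 (chr8:128685404-128685703, plus strand): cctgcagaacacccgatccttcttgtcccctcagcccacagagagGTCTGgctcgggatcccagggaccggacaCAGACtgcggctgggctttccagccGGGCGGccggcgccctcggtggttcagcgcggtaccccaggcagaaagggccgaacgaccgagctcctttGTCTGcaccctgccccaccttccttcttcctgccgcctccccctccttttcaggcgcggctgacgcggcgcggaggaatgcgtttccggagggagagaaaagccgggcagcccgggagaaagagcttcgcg
Itgb5 (chr16:33829415-33829714, plus strand): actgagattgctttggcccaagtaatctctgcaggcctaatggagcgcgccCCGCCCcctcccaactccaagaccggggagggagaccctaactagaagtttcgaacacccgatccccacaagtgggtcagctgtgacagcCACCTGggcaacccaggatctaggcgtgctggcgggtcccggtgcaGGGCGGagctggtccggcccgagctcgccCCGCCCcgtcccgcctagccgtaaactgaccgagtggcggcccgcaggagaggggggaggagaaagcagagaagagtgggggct
Lamb1 (chr12:31265043-31265342, plus strand): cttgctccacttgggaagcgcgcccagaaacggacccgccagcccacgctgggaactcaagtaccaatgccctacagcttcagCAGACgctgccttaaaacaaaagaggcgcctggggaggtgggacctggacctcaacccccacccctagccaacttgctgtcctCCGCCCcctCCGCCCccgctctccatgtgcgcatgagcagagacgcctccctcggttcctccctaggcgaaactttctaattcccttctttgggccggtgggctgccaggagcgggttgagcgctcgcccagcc
The GC box was found in all 5 of these windows and in 35.7% of the 32851 promoter windows of the same length. Among genes not called after TGFβ, Itga2, Itga3 and Lama5 held it too, and Itgb6, Lamb2 and Lamb3 did not. The SMAD box was found in Itga5, Itgb1 and Lamb1 and not in Itgav or Itgb5, and 49.6% of all windows hold it. The stretch just after the start in the Itga5 window, which holds both of its SMAD boxes, was not found in the annotated transcripts of Itga5. The E-box was found in Itgb5 alone (20.2% of all windows), and the AP-1 site in none of the 5 (7.8% of all windows). Itga1 and Itgb7, which fell after TGFβ, each held the SMAD box and no GC box, E-box or AP-1 site. These matches are letters in short windows and were not tested against the measurements.

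Levels of different genes were compared per kb of merged exon length. In NMuMG the highest integrin level was that of Itgb1, at 42.0 ± 0.586 CPM per kb (SD, n = 2), followed by the α subunits Itga3 at 32.3 ± 0.304 and Itga2 at 19.4 ± 0.497 CPM per kb. Itga6, which binds laminin with β1 or β4, stood at 8.07 ± 0.0283 CPM per kb and its hemidesmosome partner Itgb4 at 3.41 ± 0.0136 CPM per kb. The fibronectin receptor subunit Itga5 was near the low end, at 0.506 ± 0.0514 CPM per kb. NMuMG cells thus carried mainly transcripts for β1 receptors of laminin and collagen. After TGFβ, Itgb1 remained the highest, at 140 ± 7.53 CPM per kb, Itgb3 was second among β subunits at 40.2 ± 2.02 CPM per kb, and Itga5 reached 23.3 ± 1.58 CPM per kb, behind Itga2 and Itga3, whose libraries overlapped at 31.6 ± 0.0380 and 30.9 ± 2.39 CPM per kb.

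Among laminin chains the order in NMuMG was Lamc1 at 26.1 ± 0.213 CPM per kb, then Lamb3 at 8.18 ± 0.300 and Lama5 at 8.03 ± 0.185 CPM per kb, whose libraries overlapped, and then Lamb2 at 4.51 ± 0.0129 CPM per kb. Lamb1 (0.201 ± 0.00926 CPM per kb) and Lamc3 (0.0241 ± 0.00532 CPM per kb) were far lower. Lama5 was the only α chain that was tested, since Lama1 was listed at 0 in every library and Lama2, Lama3 and Lama4 did not exceed 0.513 CPM. Transcripts of Lamb3 were thus measured in cells in which Lama3, the α chain that β3 joins, had at most 37 reads in a library. A processed pseudogene on the same strand within Lama3 had up to 3.18 CPM, so reads could be divided between them.

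**Figure D1:**
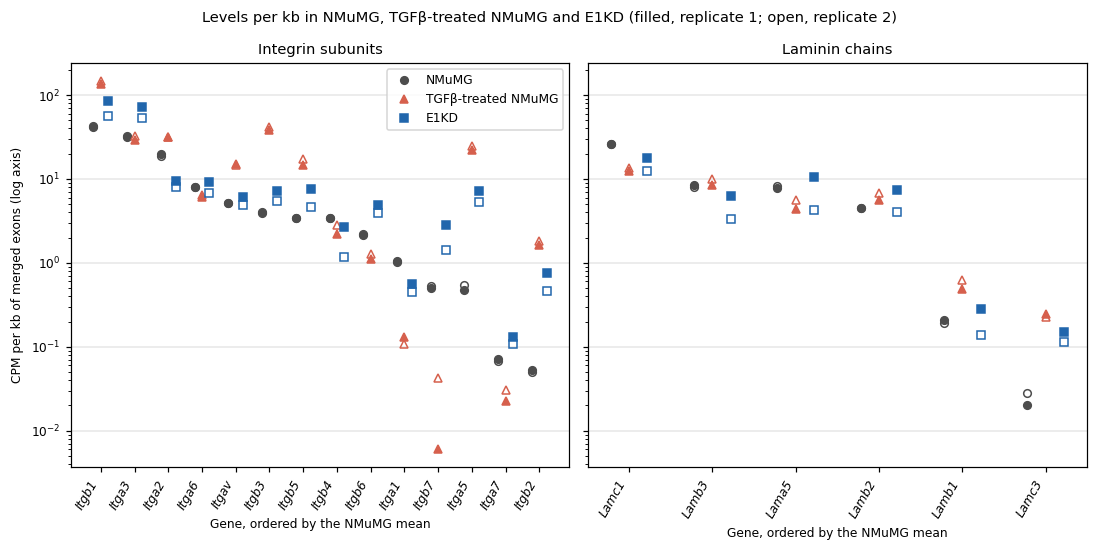
Levels of 20 of the tested integrin and laminin genes in NMuMG (circles), TGFβ-treated NMuMG (triangles) and E1KD (squares), in CPM per kb of merged exons on a log axis, with filled symbols for replicate 1 and open symbols for replicate 2 and genes ordered by the NMuMG mean. Itgb1 and Lamc1 lead their panels in NMuMG, and the TGFβ symbols of Itga5 and Itgb3 lie far above the NMuMG symbols.

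Which integrin and laminin genes respond to TGFβ was asked by comparing treated with untreated NMuMG. A gene was called at an unadjusted p under 0.001 and a log2 fold change of at least 1 in size, on the log2(CPM + 1) scale, in the limma fit of all libraries. By this rule 10 of the 21 tested genes were called, 8 higher and 2 lower after TGFβ, and 13.5% of all 17106 tested genes were called, 5.85% higher and 7.66% lower. Treated cells had more transcript of the integrin subunits Itga5, Itgav, Itgb1, Itgb3 and Itgb5, which form receptors for fibronectin and vitronectin, and less of the collagen receptor subunit Itga1. The median log2 fold change was 0.16 over the 21 genes and -0.08 over all tested genes.

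Itga5, whose α5 chain forms the main fibronectin receptor with β1, was at 2.32 and 2.68 CPM in NMuMG and at 110 and 121 CPM after TGFβ, 46.05-fold higher by the means. Its log2 fold change was 5.05 (standard error 0.109, limma adjusted p = 5.4e-14). Itgb3 rose from 24.002 and 23.4 CPM to 229 and 246 CPM, 10.0-fold, for which the log2 fold change was 3.27 (standard error 0.0888, limma adjusted p = 5.1e-13). For both genes every treated library lay far above the untreated ones. Itgav, the partner of β3, β5 and β6, was at 55.5 and 55.4 CPM and then at 163 and 159 CPM (log2 fold change 1.52, standard error 0.111). Itgb5 was at 12.3 and 12.3 CPM and then at 51.7 and 60.9 CPM (2.10, standard error 0.157). Itgb1 was at 170 and 173 CPM and then at 550 and 593 CPM (1.73, standard error 0.130). The treated and untreated libraries did not overlap for any of these 3 genes, whose limma adjusted p was at most 3.8e-08.

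Itgb6, the epithelial partner of αv that activates latent TGFβ, was at 15.2 and 15.7 CPM in NMuMG and 7.98 and 9.10 CPM after TGFβ, a log2 fold change of -0.79 that was under the limit of the call. The β subunits of αv receptors therefore did not move together: Itgb3 and Itgb5 rose, Itgb6 was lower without being called, and Itgb8 was not tested, with at most 0.0308 CPM in any library. Itga1, whose α1β1 receptor binds collagen IV, fell from 19.6 and 19.2 CPM to 2.45 and 1.99 CPM (log2 fold change -2.67, standard error 0.0969, limma adjusted p = 1.2e-11). The other collagen receptor subunit, Itga2, was at 141 and 135 CPM and then at 226 and 225 CPM, a log2 fold change of 0.70 and not called. Pelo, a gene of the same strand that lies within Itga1, had up to 31.1 CPM, so reads could be divided between these genes. The laminin receptor subunits Itga3, Itga6 and Itgb4 had log2 fold changes of -0.07, -0.37 and -0.43, and none was called.

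Itgb2, the β subunit of the leukocyte integrins, was at 0.159 and 0.151 CPM in NMuMG and at 4.92 and 5.63 CPM after TGFβ (log2 fold change 2.44, standard error 0.114, limma adjusted p = 2.0e-10). Itgb7, the other leukocyte β subunit, was at 1.38 and 1.47 CPM and then at 0.0168 and 0.117 CPM, which are 1 and 7 reads (log2 fold change -1.19, standard error 0.190, limma adjusted p = 8.8e-05). The 2 leukocyte β subunits thus moved in opposite directions, but Itgb7 was not called with the first kind of library alone in the fit. None of the α subunits that pair with β2 in leukocytes (Itgal, Itgam, Itgax and Itgad) exceeded 0.231 CPM in any library, and of the partners of β7, Itga4 did not exceed 0.0615 CPM and Itgae 0.351 CPM. Of 11 leukocyte markers, 2 reached 1 CPM in both TGFβ libraries and 3 in both NMuMG libraries, and their summed level was 7.27 and 8.40 CPM after TGFβ against 4.04 and 4.28 CPM in NMuMG. Over all 20 libraries Tyrobp was listed at 0 and Ptprc (CD45) at no more than 0.374 CPM. Csf1r was the marker called after TGFβ, at 4.61 against 1.21 CPM by the means. The part of these cells in the levels of Itgb2 and Itgb7 was not tested.

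Of the 7 laminin chains tested, 2 were called after TGFβ. Lamb1 rose from 2.05 and 1.92 CPM to 4.84 and 6.23 CPM (log2 fold change 1.12, standard error 0.156, limma adjusted p = 2.4e-05). Without replicate 2 of the treated cells its log2 fold change was 0.97, under the limit. It was not called with the compared groups alone or the first kind of library alone in the fit. Lamc3 rose from 0.124 and 0.170 CPM to 1.49 and 1.37 CPM (1.08, standard error 0.0933, limma adjusted p = 1.7e-07). The γ1 chain Lamc1, the most abundant chain per length, was at 215 and 217 CPM and then at 103 and 113 CPM, a log2 fold change of -0.99 that lay just under the limit and passed it without replicate 1 of NMuMG or replicate 2 of the treated cells. Lama5 had a log2 fold change of -0.68, Lamb2 0.44 and Lamb3 0.16, and none of these was called. Of 9 fibroblast markers 2, Col1a1 and Pdgfrb, reached 1 CPM after TGFβ, where the list summed to 42.9 and 51.6 CPM against 0.638 and 0.831 CPM in NMuMG. Dcn and Lum, which define fibroblasts, were at no more than 0.0168 CPM in the treated libraries, and the part of fibroblasts in these results was not tested. In bulk RNA fewer cells that express a gene cannot be told apart from less RNA of it per cell.

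**Figure D2:**
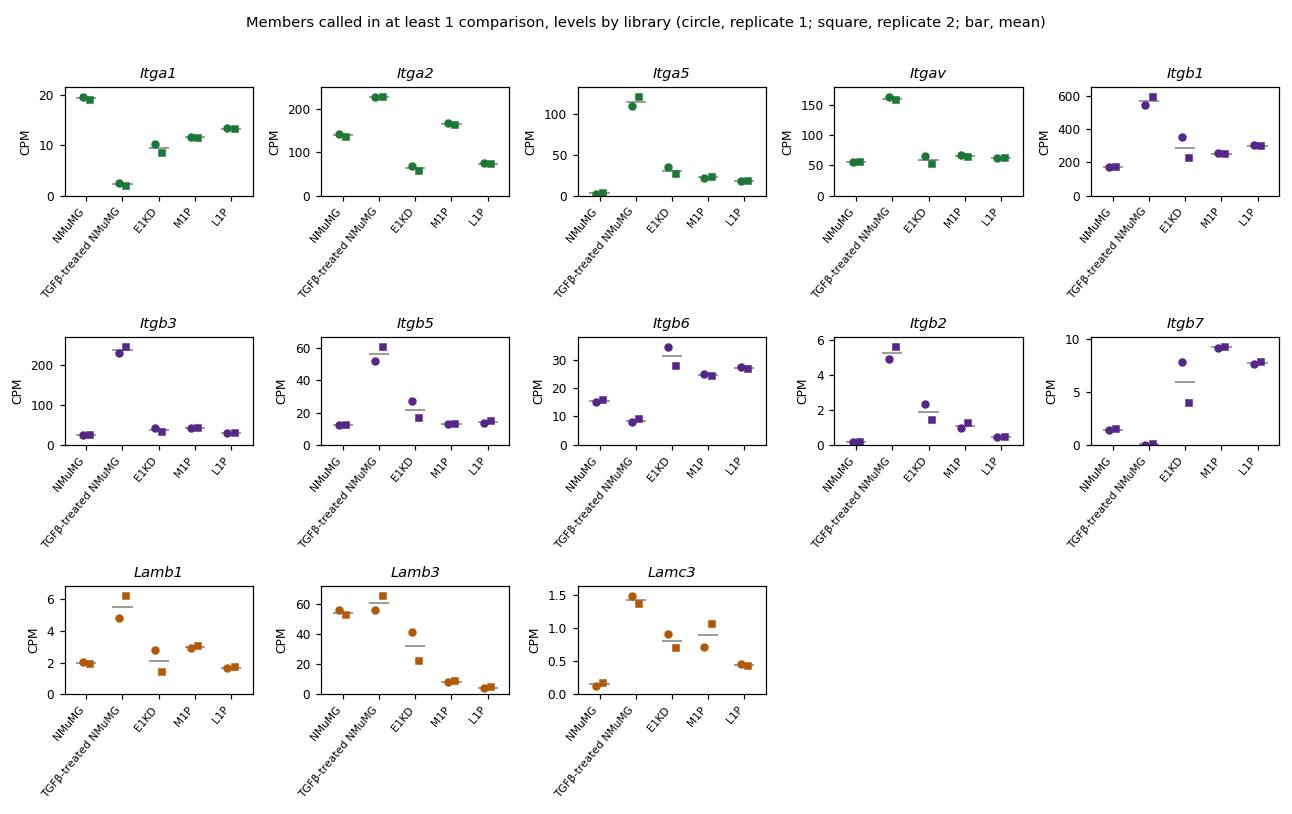
Levels in CPM, on linear axes from 0, of the 13 genes called in at least 1 comparison within the first kind of library (NMuMG, TGFβ, E1KD, M1P, L1P), with circles for replicate 1, squares for replicate 2 and bars for the mean. The TGFβ libraries are highest for Itga5, Itgb3, Itgav, Itgb1 and Itgb5, Lamb3 is lowest in L1P (3.77 and 4.35 CPM), and the E1KD points of Itgb1, Itgb5 and Lamb3 lie far from each other.

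The effect of silencing hnRNP E1 was asked by comparing E1KD with NMuMG, which uses the same NMuMG libraries as the comparison after TGFβ. In E1KD 4 of the 21 genes were called, 3 higher and 1 lower, where 9.44% of all tested genes were called, 6.44% higher and 2.99% lower. Itga5 and the leukocyte β subunits Itgb2 and Itgb7 were higher and Itga2 was lower, and no laminin chain was called. Itga5 was at 35.1 and 25.9 CPM in E1KD, 12.2-fold above NMuMG by the means, for a log2 fold change of 3.16 (standard error 0.109, limma adjusted p = 8.1e-12). Itga2, whose α2β1 receptor binds collagen I, was at 68.3 and 56.5 CPM, below both NMuMG libraries (-1.14, standard error 0.0728, limma adjusted p = 8.8e-09). Itgb2 was at 2.32 and 1.404 CPM (1.29, standard error 0.114) and Itgb7 at 7.85 and 3.97 CPM (1.45, standard error 0.190). With E1KD and NMuMG alone in the fit, Itga5 was called and Itga2, Itgb2 and Itgb7 were not. The leukocyte markers summed to 7.43 and 5.05 CPM in E1KD, and 1 of the 5 tested, Laptm5, was called, with and without replicate 1.

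Without replicate 1 of E1KD the log2 fold changes were 2.95 for Itga5, 1.06 for Itgb2, 1.04 for Itgb7 and -1.27 for Itga2, and each was still called. The number of calls, however, moved with the libraries. Without replicate 1 it was 8 (3 higher and 5 lower), with Itga1, Itgb4, Lamb3 and Lamc1 added among the lower, and without replicate 2 it was 8 (7 higher and 1 lower), with Itga3, Itgb1, Itgb5 and Itgb6 added among the higher. Over all 17106 tested genes the calls were 1614 with both libraries, 1412 without replicate 1 and 3074 without replicate 2. Rescaling the values to equal sums or by median-of-ratios factors, which moved the median log2 fold change of all genes from 0.17 to 0.04 and 0.02, gave 3 higher and 3 lower, and 3 higher and 5 lower. Which further genes were called, and on which side, thus depended on the E1KD library and the scaling. By the means of E1KD against NMuMG, Itga3 was at 357 against 184 CPM, Itgb1 at 289 against 172 CPM and Itgb5 at 21.7 against 12.3 CPM. Itgb6 was at 31.2 against 15.5 CPM, Itga1 at 9.42 against 19.4 CPM and Lamc1 at 124 against 216 CPM. In the single E1KD libraries Itgb4 was at 18.99 and 8.32 CPM and Lamb3 at 41.5 and 22.2 CPM. Lama5, which was not among these genes, was at 120 and 48.7 CPM in E1KD.

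Tested directly against each other, E1KD and TGFβ-treated cells differed in 11 of the 21 genes, 3 higher and 8 lower in E1KD, where 23.3% of all tested genes were called, 17.2% higher and 6.17% lower. Itgb7 was higher in E1KD (log2 fold change 2.64, standard error 0.190, limma adjusted p = 1.5e-08), as were Itgb6 (1.75, standard error 0.101) and Itga1 (1.69, standard error 0.0969). Itgb6 was at 34.6 and 27.9 CPM in E1KD against 7.98 and 9.10 CPM after TGFβ, and the NMuMG libraries lay between them. The largest difference in the other direction was that of Itgb3, at 42.3 and 32.6 CPM in E1KD against 229 and 246 CPM (-2.64, standard error 0.0888, limma adjusted p = 3.8e-12). Itga5 (-1.89), Itga2 (-1.84), Itgav (-1.44), Itgb5 (-1.37), Itgb2 (-1.15), Lamb1 (-1.12) and Itgb1 (-1.01) were the other genes lower in E1KD. The log2 fold change of Itga5 above NMuMG was thus 3.16 in E1KD and 5.05 after TGFβ, and the difference was itself past the limits. Without replicate 1 of E1KD the 11 genes were still called, at 2.22 for Itgb7, 1.60 for Itgb6, 1.56 for Itga1 and between -1.33 and -2.82 for the 8 lower genes. Without replicate 2 of E1KD, Itgb1 (-0.70), Itgb2 (-0.92) and Lamb1 (-0.78) were not called. Without replicate 2 of the treated cells neither were Itgb1 (-0.96) and Lamb1 (-0.96). Itgb1 and Lamb1 were also not called with the first kind of library alone in the fit. When the fit held E1KD and the treated cells alone, only Itga2 and Itgb3 were called.

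In the tumor line M1P 2 of the 21 genes were called against E1KD, 1 higher and 1 lower, and 3.59% of all tested genes were, 1.16% higher and 2.43% lower. Itga2 was at 167 and 162 CPM in M1P, above both the E1KD and the NMuMG libraries (log2 fold change 1.39, standard error 0.0728, limma adjusted p = 2.3e-09). Lamb3, the β3 chain of the hemidesmosome laminin, was at 7.70 and 8.61 CPM against 41.5 and 22.2 CPM in E1KD (-1.78, standard error 0.202, limma adjusted p = 9.7e-06). Without replicate 1 of E1KD these values were 1.52 and -1.34, and Itgb4 and Itgb7 were called as well (3 higher and 1 lower). Without replicate 2 there were 1 higher and 3 lower, with Itgb5 and Lama5 added, and calls over all genes went from 614 to 2021. Itga5 kept a level of 21.9 and 22.8 CPM in the M1P cells, and of 17.5 and 18.3 CPM in the L1P cells. These lay below the E1KD libraries and above the NMuMG libraries in each case, and Itga5 was called in neither step. When the fit held M1P and E1KD alone, Itga2 was called and Lamb3 was not.

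In the lung metastasis line L1P 1 of the 21 genes was called against M1P, Itga2, and it was lower (1.21% of all tested genes were called, 0.742% higher and 0.468% lower). Itga2 was at 73.6 and 73.3 CPM in L1P (log2 fold change -1.15, standard error 0.0728, limma adjusted p = 6.4e-08), below the NMuMG libraries and just above the E1KD libraries. Along the sequence of lines its level was thus high in NMuMG, low in E1KD, high in M1P and low in L1P. Lamb3 was lower again, at 3.77 and 4.35 CPM (-0.86, limma adjusted p = 0.0083). This was under the limit of the fold change. The laminin receptor subunits Itga3 and Itga6 were at no less than 249 CPM and 100.1 CPM in the M1P and L1P libraries.

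**Figure D3:**
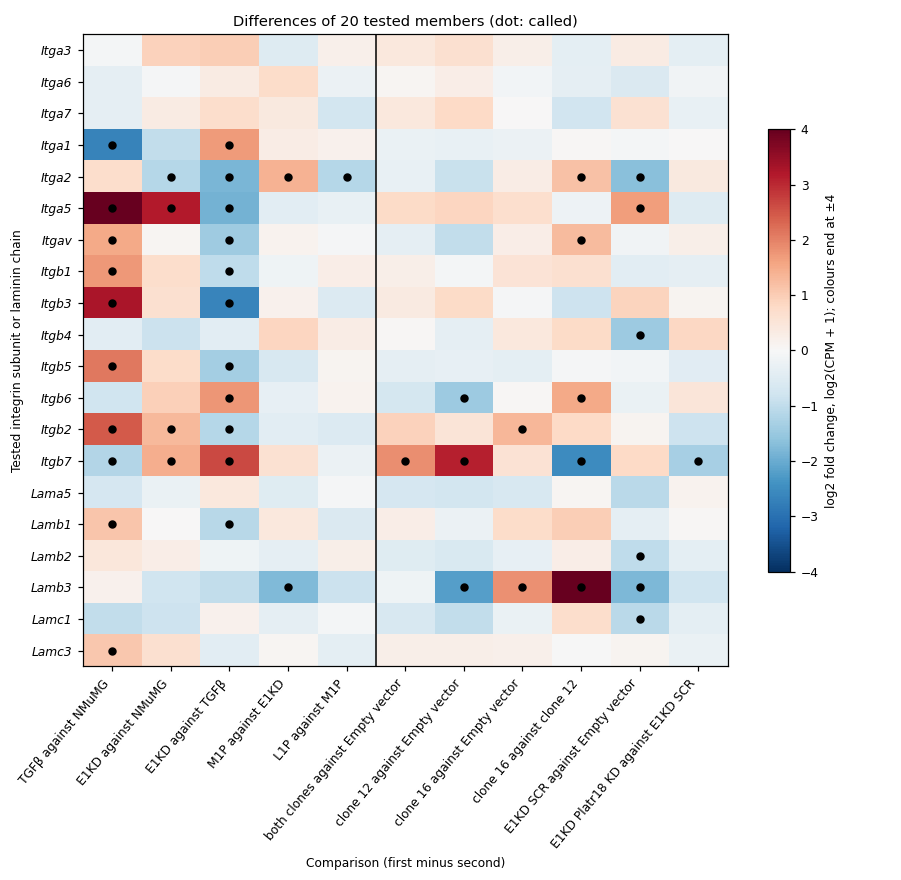
Differences on the log2(CPM + 1) scale for 20 of the tested genes (rows) in 11 comparisons (columns, first condition minus second), with red for higher and blue for lower in the first condition, colours ending at a size of 4 and a dot for each call. The line divides the 2 kinds of library. Most dots in the TGFβ column lie on integrins, and those in the column of E1KD SCR lie on laminin chains, Itga2, Itga5 and Itgb4.

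In the second kind of library, the effect of Platr18 was asked by comparing both overexpressing clones with the empty vector. Only Itgb7 was called (1 of 21, against 1.46% of all tested genes, 0.427% higher and 1.03% lower), at a log2 fold change of 1.85 (standard error 0.164, limma adjusted p = 1.5e-06). It was at 45.8 and 49.5 CPM in clone 12, 6.98 and 8.21 CPM in clone 16 and 4.81 and 4.56 CPM with the empty vector. Its value came mainly from clone 12, for clone 16 alone gave 0.59 and was not called. Itgb2 was at 1.69 and 1.84 CPM in clone 12 and at 3.87 and 3.83 CPM in clone 16 against 0.849 and 0.999 CPM (0.93 over both clones, under the limit), and Itga5 was at 5.45 and 5.91 CPM and 4.88 and 4.66 CPM against 2.70 and 2.61 CPM (0.76). Leukocyte markers summed to between 7.16 and 8.09 CPM in the clones and to 5.21 and 4.64 CPM with the empty vector, and their part in these levels was not tested.

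Between the clones 6 of the 21 genes were called, 5 higher and 1 lower in clone 16, where 4.38% of all tested genes were, 2.71% higher and 1.68% lower. Lamb3 had the largest difference, at 151 and 174 CPM in clone 16 against 7.92 and 10.0 CPM in clone 12, 18.1-fold by the means (log2 fold change 4.04, standard error 0.202, limma adjusted p = 1.7e-09). The empty vector lay between the clones, with Lamb3 at 42.3 and 46.9 CPM, and no library held more than 0.513 CPM of Lama3. Itgb6 was at 48.7 and 45.8 CPM in clone 16 and 17.2 and 14.9 CPM in clone 12 (1.51, standard error 0.101), Itgav at 74.8 and 80.8 CPM and 34.6 and 29.4 CPM (1.26, standard error 0.111), and Itga2 at 185 and 188 CPM and 84.2 and 78.8 CPM (1.19, standard error 0.0728). Thus both subunits of the αvβ6 receptor were higher in clone 16 than in clone 12. With the empty vector the means were 45.7 CPM for Itgb6, 64.7 CPM for Itgav and 152 CPM for Itga2. None of these genes was called in clone 16 against the empty vector. Itgb7 was lower in clone 16 (-2.50, standard error 0.190, limma adjusted p = 1.3e-07).

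Against the empty vector, clone 12 had 3 calls (3.65% of all tested genes, 1.13% higher and 2.52% lower): Itgb7 higher (3.10), and Itgb6 (-1.46) and Lamb3 (-2.20) lower. Clone 16 had 2 calls (1.78% of all tested genes, 0.772% higher and 1.01% lower), Itgb2 (1.33) and Lamb3 (1.84), both higher. Lamb3 was therefore called in opposite directions in the 2 clones, and its log2 fold change over both was -0.18. The clones also differed in Platr18 itself, which had 3092 and 3096 CPM in clone 12 and 813 and 820 CPM in clone 16. Each condition was 1 clone, so the level of Platr18 and other differences between the clones cannot be told apart.

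After silencing of Platr18 in E1KD cells 1 of the 21 genes was called against the scrambled shRNA, and 1.48% of all tested genes were, 0.485% higher and 0.994% lower. Itgb7 fell from 8.38 and 9.59 CPM to 3.37 and 2.57 CPM (log2 fold change -1.34, standard error 0.190, limma adjusted p = 0.00017). Itgb2 was at 1.04 and 1.14 CPM and then at 0.156 and 0.177 CPM, a log2 fold change of -0.84 that did not reach the limit on this scale. Both leukocyte β subunits were thus at their lower level in the Platr18-silenced cells, while the leukocyte markers summed to 19.9 and 21.7 CPM there and to 13.2 and 12.2 CPM with the scrambled shRNA, and their part was not tested. Of these sums, Lcp1 alone was 15.1 and 17.2 CPM against 8.47 and 7.45 CPM. Of 10 platelet and endothelial markers 1 reached 1 CPM in both libraries of these lines, Ppbp, and it was called lower with the Platr18 shRNA (-1.21), higher in the clones (1.49) and higher in E1KD than in NMuMG (1.34, or 1.12 without replicate 1 of E1KD). That list summed to 2.18 and 2.19 CPM in E1KD Platr18 KD and to 5.59 and 6.20 CPM in E1KD SCR, and its part was not tested either. Pf4 and Pecam1, which define platelets and endothelium, did not exceed 0.0786 and 0.197 CPM in any library. Itgb4 was at 13.3 and 14.1 CPM against 7.40 and 7.04 CPM (0.84), Lamb3 at 6.25 and 6.90 CPM against 11.8 and 12.6 CPM (-0.80), and neither was called.

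**Figure D4:**
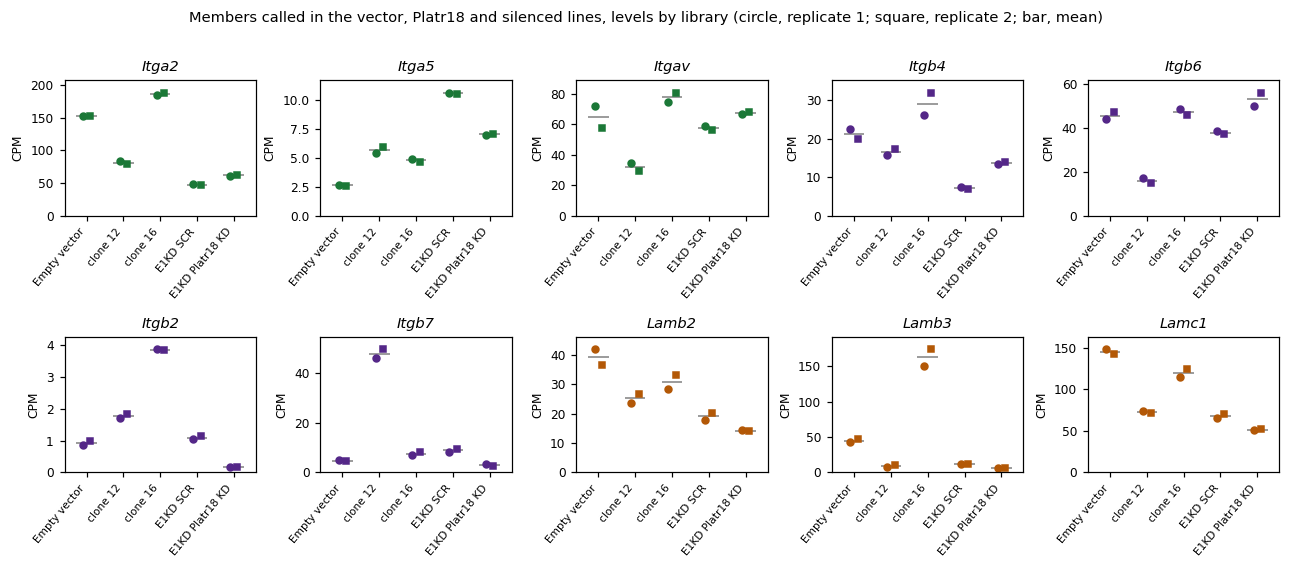
Levels in CPM, on linear axes from 0, of 10 genes called in at least 1 comparison among the empty vector, clone 12, clone 16, E1KD SCR and E1KD Platr18 KD, with circles for replicate 1, squares for replicate 2 and bars for the mean. Clone 12 stands above all other lines for Itgb7 (45.8 and 49.5 CPM) and clone 16 for Lamb3 (151 and 174 CPM), and E1KD SCR lies below the empty vector for Itga2, Itgb4, Lamb2, Lamb3 and Lamc1.

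The E1KD cells with a scrambled shRNA were compared with the empty vector as a second look at hnRNP E1 silencing, with different vectors in the 2 lines. Here 7 of the 21 genes were called, 1 higher and 6 lower, where 5.98% of all tested genes were called, 2.91% higher and 3.07% lower. Itga5 was at 10.6 and 10.5 CPM against 2.70 and 2.61 CPM (log2 fold change 1.66, standard error 0.109, limma adjusted p = 1.8e-08), and Itga2 at 48.1 and 46.6 CPM against 153 and 152 CPM (-1.66, standard error 0.0728, limma adjusted p = 1.8e-10). Both subunits thus changed in the same direction as in E1KD against NMuMG, which shares none of these libraries. The hemidesmosome subunit Itgb4 was at 7.40 and 7.04 CPM against 22.6 and 20.01 CPM (-1.44, standard error 0.239, limma adjusted p = 0.00022).

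Laminin chains made up most of the lower genes. Lamb3 was at 11.8 and 12.6 CPM against 42.3 and 46.9 CPM (log2 fold change -1.79, standard error 0.202, limma adjusted p = 5.7e-06). Lamc1 was at 65.4 and 70.0 CPM against 149 and 143 CPM (-1.09). For both the libraries of E1KD SCR lay below those of the empty vector. Lamb2 was at 17.8 and 20.3 CPM against 42.0 and 36.5 CPM, and its value of -1.003 (standard error 0.196) lay so near the limit that it was lost with values rescaled to equal sums and without 1 library of either line (replicate 1 of each). Lama5 had a log2 fold change of -1.07 but an unadjusted p of 0.00146. The 7 laminin chains tested had a median log2 fold change of -1.07 and the 14 integrins -0.09, against 0.02 over all genes. Lamb1 was listed at 0 in both E1KD SCR libraries and at 0.288 and 0.290 CPM with the empty vector.

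The 2 effects of silencing differed past the same limits for 5 of the 21 genes, where 3.51% of all tested genes were called, 2.57% higher and 0.947% lower. The difference was taken as E1KD minus NMuMG less E1KD SCR minus the empty vector. It was 1.496 for Itga5 (standard error 0.155), 1.27 for Lamb2 (0.277), 1.22 for Itgb6 (0.142), 1.17 for Itgb2 (0.162) and 1.13 for Itgb1 (0.185). All 5 were higher. Without replicate 1 of E1KD, Itga5 (1.28) and Itgb6 (1.07) were still called, Itgb1 (0.82), Itgb2 (0.94) and Lamb2 (0.84) were not, and Itga1 was called as lower, which gave 2 higher and 1 lower. Without replicate 2 there were 10 higher and none lower, with Itgb4, Itgb5, Itgb7, Lama5 and Lamb3 added, and calls over all genes went from 601 to 1779. Lamb2 was also not called without either NMuMG library or without replicate 1 of the empty vector or of E1KD SCR. With either rescaling Itgb1 was not called and Itga1 was called as lower, and the split was 4 higher and 1 lower. The kind of library, the vectors and the depth changed together with the line, and their effects cannot be told apart.

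The proteins that integrins bind, inside and outside the cell, were taken from lists of pathway genes. Of 34 proteins of integrin adhesions 33 were tested, and 9 were higher and none lower after TGFβ, where 5.85% of all tested genes were higher and 7.66% lower. The largest changes were those of Tns1, a tensin that ties β subunits to actin, at 556 against 28.6 CPM by the means (log2 fold change 4.23), Zyx (2.78) and Nedd9 (2.67). In E1KD, where 6.44% of all genes were higher and 2.99% lower, 10 were higher and none lower, with Tns4 at 1.81, Zyx at 1.56 and the actin crosslinker Actn1 at 1.56. Without replicate 1 of E1KD these counts were 8 and 1, and the values of Tns4, Zyx and Actn1 were 1.76, 1.31 and 1.11. The medians over the list were 0.62 after TGFβ and 0.66 in E1KD, beside -0.08 and 0.17 over all genes. In E1KD SCR against the empty vector 1 was higher, Tns4 (1.15), and 1 lower, Tns1 (-1.20), against 2.91% and 3.07% of all genes. The list median there was 0.02, beside 0.02 over all genes. In E1KD Platr18 KD 2 of the 33 were lower than in E1KD SCR (0.994% of all genes), Tns1 (-1.71) and Tns3 (-1.02).

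Of 29 other ligands of integrins 18 were tested. After TGFβ 13 were higher and 2 lower, against 5.85% and 7.66% of all genes. Fn1, the fibronectin that α5β1 and αv integrins bind, was at 681 CPM against 10.7 CPM by the means (log2 fold change 5.86), Tnc at 35.1 CPM where NMuMG was listed at 0, and Thbs1 at 2370 against 65.1 CPM (5.16). In E1KD 6 were higher and none lower (6.44% and 2.99% of all genes), led by Fn1 at 162 CPM (3.76), Tgfb1 (1.95) and Tgfb2 (1.90). Without replicate 1 there were 4 and none, with Fn1 at 3.36, Tgfb1 at 1.83 and Tgfb2 at 1.81. Fn1 was thus higher wherever Itga5 was called higher, for it was also 20.7 against 5.46 CPM in E1KD SCR (1.75). In that comparison with the empty vector 4 ligands were higher and 1 lower (2.91% and 3.07% of all genes). In M1P 6 ligands were lower than in E1KD (2.43% of all genes were), with Thbs1 (-2.90) and Fn1 (-1.81) first. Without replicate 1 of E1KD there were 4 lower, with Thbs1 at -2.68 and Fn1 at -1.41, and without replicate 2 there were 8. In L1P Fn1 was higher than in M1P (1.59). In E1KD Platr18 KD against E1KD SCR, Fn1 was lower (-1.59) and Vcam1, a ligand of α4 integrins, was higher (1.66). In the clones against the empty vector Fn1 was higher (1.08).

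Of 21 basement membrane partners of laminin 17 were tested, and 9 were higher and 1 lower after TGFβ (5.85% and 7.66% of all genes), led by Fbln2 (4.47), Col4a4 (2.74) and Col4a1 (2.68). In E1KD 8 were higher and 1 lower (6.44% and 2.99% of all genes), with Smoc1 at 21.4 against 0.136 CPM (4.30), Fbln2 (3.53) and the perlecan gene Hspg2 (2.18), and without replicate 1 there were 5 and 1, with these genes at 4.18, 3.35 and 1.67. In E1KD SCR against the empty vector 1 was higher, Fbln2 (1.38), and 1 lower, the agrin gene Agrn (-1.60), against 2.91% and 3.07% of all genes. In the same comparison 2 of the 9 tested mesenchymal markers were higher and none lower, and no epithelial marker was called. Of 8 hemidesmosome partners of α6β4 5 were tested. Dst (1.30) and Cd81 (1.25) were higher after TGFβ (5.85% of all genes), none was called in E1KD, and Cd151, a tetraspanin that binds α3 and α6 integrins, was higher in clone 16 than in clone 12 (1.38; 2.71% of all genes). Beside the same shares of all genes, mesenchymal markers (9 of 11 tested) had 5 higher and 1 lower after TGFβ and 8 higher in E1KD, or 7 without its replicate 1, and epithelial markers had 1 higher and 2 lower after TGFβ and none called in E1KD, or 1 lower without its replicate 1.

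The laminin receptor subunits Itga3, Itga6 and Itga7 and the laminin chain Lama5 were called in no comparison in the fit of all libraries. Itga3 ranged from 142 to 409 CPM over all libraries, Itga6 from 54.4 to 136 CPM, Itga7 from 0.184 to 1.92 CPM and Lama5 from 48.7 to 196 CPM. Under other settings some were called. Itga3 was higher in E1KD than after TGFβ by a log2 fold change of 0.999 (limma adjusted p = 1.6e-06), just under the limit. It was called there with pseudocount 0.1 in place of 1. With that pseudocount Itga7 was called lower after TGFβ than in NMuMG, in L1P than in M1P and in clone 16 than in clone 12. It was called higher in E1KD than after TGFβ and in E1KD SCR than with the empty vector. Itga3 was called without replicate 2 of E1KD, as higher in E1KD than in NMuMG. Lama5 was called lower in E1KD SCR than with the empty vector under either rescaling, with the adjusted p in place of the unadjusted p, and with the compared groups or 1 kind of library alone in the fit. It was also called without replicate 2 of E1KD, as lower in M1P. Mettl7b on the opposite strand overlaps Itga7 and had up to 23.7 CPM, and whether the reads keep their strand is not given in the sources used here. Of the 16 untested genes, Itga10 had at most 0.907 CPM, Lama3 0.513, Itga2b 0.401, Itgae 0.351, Itgam 0.231 and Itga11 0.117 CPM. Itgal, Lama2, Itga4, Itgad, Itga9, Itgax, Itgb8 and Lama4 did not exceed 0.0954 CPM, and Itga8 and Lama1 were listed at 0 in every library.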

How the data were processed

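RNA was sequenced in 20 libraries of 10 conditions. The authors aligned reads with Bowtie2 2.2.5 to GRCm38.p6, per the submitters' processing notes, assigned them to genes of the M18 annotation by expectation-maximization in Partek, and the authors deposited the values as CPM (counts per 1e6 reads), each with 0.0001 added. Low CPM values were whole multiples of 1 read (within 0.05 read, up to 20 reads) for 92.0% to 93.0% of values in the first kind of library and 97.3% to 98.1% in the second, so whole reads could not be recovered and count models were left out. Expectation-maximization can divide reads between overlapping genes.

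The model was limma 3.58.1 in R 4.3.3 (lmFit, eBayes with a trend) on log2(CPM + 1), fitted to the 10 conditions without further terms (10 residual degrees of freedom). The filter kept 17106 genes that reached 1 CPM in 2 or more libraries. A fold change on this scale understates that of low genes. Adjusted p-values are Benjamini-Hochberg values over all tested genes, and the largest among called integrin or laminin genes is below 0.05. The fit was tested on simulated data that gave a gene the same spread in every condition. Such data cannot show how the fit handles the wider spread of E1KD. With 2 libraries a group, an exact permutation test of a single gene could not go below p = 0.3333.

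Merged exon lengths came from GENCODE M21 on the same build, promoters from RefSeq. Tables and figures used Python 3.11.15 with pandas 2.3.3 and matplotlib 3.10.9. The genes and lists were chosen with earlier results of these data known. One item that the counts include is not reported here. Every other gene of the set called in a comparison is described, untested and uncalled genes are named once with their range, and from other lists up to 3 called genes with the largest change are named. Pelo, Mettl7b and the cell type markers at or near 0 were named after their values were seen. The replicate numbers were used as a block in an alternative fit only, since same-numbered libraries did not deviate together in every pair (correlations of deviations from -0.395 to 0.523).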

Additional observations from a re-analysis of the deposited data

Results flagged for a closer look

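Effects that differed between 2 settings are listed here with the test of the difference (limma, log2 scale). For silencing of hnRNP E1, the effect in E1KD against NMuMG minus that in E1KD SCR against the empty vector was 1.496 for Itga5 (adjusted p = 7.8e-06), 1.27 for Lamb2 (adjusted p = 0.0045), 1.22 for Itgb6 (adjusted p = 2.5e-05), 1.17 for Itgb2 (adjusted p = 0.00012) and 1.13 for Itgb1 (adjusted p = 0.00050). Without replicate 1 of E1KD the differences were 1.28 for Itga5, 0.84 for Lamb2, 1.07 for Itgb6, 0.94 for Itgb2 and 0.82 for Itgb1. Itga5 was higher in both silenced lines and by more in E1KD. Itgb6 was higher in E1KD than in NMuMG in both libraries (0.96) and lower in E1KD SCR than with the empty vector in both libraries (-0.26). Itgb1 was likewise higher in the first comparison (0.72) and lower in the second (-0.42). The changes of Itgb6 and Itgb1 were not called in either comparison. The line, the vector and the kind of library changed together and cannot be told apart.

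For Platr18 overexpression, the effect in clone 16 minus that in clone 12 was 4.04 for Lamb3 (adjusted p = 1.7e-09), -2.50 for Itgb7 (adjusted p = 1.3e-07), 1.51 for Itgb6 (adjusted p = 3.7e-08), 1.26 for Itgav (adjusted p = 6.5e-07) and 1.19 for Itga2 (adjusted p = 1.5e-08), all from limma with 2 libraries of each clone. Lamb3 was above the empty vector in clone 16 and below it in clone 12 in every library.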

How the results depend on the processing

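Of 48 called changes, none was reversed by any alternative. Of them 27 were called under every alternative that gave a value, and 21 were lost under at least 1. A filter at a mean of at least 5 CPM tested 17 genes of the set and gave no value for Itgb2, Lamb1 and Lamc3. Of the 21 lost changes, 16 were lost when the fit held the compared groups alone. There 2 residual degrees of freedom remained in a comparison of 2 groups. That fit gave 1 call for E1KD against NMuMG, 2 for E1KD against TGFβ, 1 for M1P against E1KD and 3 for the difference between the silencing effects. With 1 kind of library alone in the fit there were 8 calls for TGFβ against NMuMG and 9 for E1KD against TGFβ. E1KD SCR against the empty vector had 8, and the other counts within a kind did not change. With pseudocount 0.1 the calls were 7 for E1KD against NMuMG, 3 for L1P against M1P, 2 for the clones against the empty vector and 2 for Platr18 silencing, which added Itgb2 in the last 3 and Itga7 in L1P. Median-of-ratios factors gave 8 calls in E1KD against NMuMG, where the cause was not tested, and equal sums or these factors gave 3 in M1P against E1KD (2 higher, 1 lower). Clone 12 alone gave 3 calls against the empty vector and clone 16 alone 2. Leaving out each replicate in turn gave 4 to 8 calls for E1KD against NMuMG, 10 to 11 for TGFβ against NMuMG, 10 to 12 for E1KD against TGFβ, 2 to 4 for M1P against E1KD, 1 for L1P against M1P, 1 for the clones, 6 to 7 for clone 16 against clone 12, 1 for Platr18 silencing, 6 to 7 for E1KD SCR against the empty vector and 3 to 10 for the difference between the silencing effects.

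With the replicate block there were 4 calls for E1KD against NMuMG, 10 for TGFβ, 11 for E1KD against TGFβ, 2 for M1P, 1 for L1P, 1 for the clones, 6 between the clones, 1 for Platr18 silencing, 7 for E1KD SCR and 5 for the difference, so the block changed no count. Deviations of same-numbered TGFβ and E1KD libraries correlated at -0.395, and a crossed replicate block, chosen after seeing the data, also gave 11 calls. The counts and values without each E1KD replicate in the other lists were likewise added after seeing the data. Genes under 3 reads (0.0204 to 0.0591 CPM) cannot be told from 0 at these depths, which cover counting error only.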
